A study of Mus musculus with 15 samples.

Results

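Olfactory receptor genes were examined in maps of hydroxymethylated and unmodified CG sites of mouse embryonic stem cells. All autosomal protein-coding genes of the GENCODE M21 annotation (mm10) whose symbol starts with Olfr were taken, 1128 of 20807, on 17 chromosomes, and 40 of them carry a pseudogene suffix. The gene span plus 2 kb on both sides held 55347 of the 20383623 autosomal CGs. Genes less than 200 kb apart were joined into clusters, which gave 60 clusters, of which 13 held 1 gene and 18 held 20 or more. These 18 clusters held 921 of the genes.

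All libraries were made from DNA of the E14TG2a line, embryonic stem cells kept on gelatin with LIF and serum, with no treatment. In hmTOP-seq, a glucosyltransferase puts an azide-bearing glucose on 5hmC, an oligonucleotide is tethered to it by click chemistry, and the polymerase primes at the tagged base, so that most reads start at or close to a labelled CG. Inputs of 500, 50 and 5 ng were used, with 2 libraries each, and 2 control libraries per input were made without the glucosyltransferase. In uTOP-seq, the unmodified CGs (uCGs) were tagged instead, in 3 libraries of 300 ng. The libraries of a group are technical replicates of 1 cell line, so p-values measure only the spread between libraries.

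Odorant receptors are G protein-coupled receptors and form the most numerous gene family of the mouse. Each olfactory sensory neuron expresses a single member from a single allele, and in most other cells the genes are largely silent. Expression was not measured here. Most lie in AT-rich clusters and have their coding sequence in a single exon. 5hmC arises when TET enzymes oxidise 5-methylcytosine, and in embryonic stem cells it is known from enhancers and transcribed gene bodies.

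The coding sequence itself places CGs in these genes. The DRY motif at the inner end of the third transmembrane helix, where the receptor contacts the G protein, was found in 888 of the 1128 genes by translating the annotated coding sequence. In 743 genes its arginine codon starts with CG, which makes it a site that the family shares, and the codon was CGC in 499 of them, CGT in 117, CGA in 66 and CGG in 61. The stretch of 30 bases around this site is shown for 4 genes of high and then 2 genes of low coverage at 500 ng that have it, taken from the 10 genes at each end described further on, from the GRCm38.p6 genome in the direction of the gene, with the DRY codons in capitals.
Olfr222: gccatggctctgGACCGCTACgtggccatc
Olfr279: gccatgtcctatGACCGTTACttggccatt
Olfr543: gccatggctctaGATCGCTATgtggccatt
Olfr718-ps1: gccatggccttgGACCGCTACctggctatc
Olfr1295: gtaatggcttatGACCGCTATgtagccatc
Olfr680-ps1: gtcatggcctatGATCGCTATgtggctatc
All 6 stretches lie in coding sequence. They are at chr11:59571349-59571378 on the minus strand for Olfr222, chr15:98497822-98497851 on the plus strand for Olfr279, chr7:102477476-102477505 on the minus strand for Olfr543 and chr5:143137814-143137843 on the minus strand for Olfr718-ps1. For the low genes they are at chr2:111565065-111565094 for Olfr1295 and chr7:105091254-105091283 for Olfr680-ps1, both on the minus strand. 

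The genes shown were chosen for their reads at 500 ng, so the reads at this shared site are a description. At the arginine CG of Olfr222 there were 9 and 25 reads in the 500 ng libraries and 1 read in each of the 3 uTOP-seq libraries. Olfr718-ps1 had 8 and 14 reads at 500 ng and 2, 4 and 1 in uTOP-seq. Olfr279 had 5 and 7 at 500 ng and 2, 2 and 4 in uTOP-seq, and Olfr543 had 0 and 4 at 500 ng and 0 in all 3 uTOP-seq libraries. The 2 low genes have no 500 ng read by choice, and at this site Olfr1295 had 3, 2 and 0 and Olfr680-ps1 had 0, 0 and 3 reads in uTOP-seq. The 40 bases on both sides of this CG occur once in the genome in each of the 4 high genes and in Olfr1295, and more than once in Olfr680-ps1, where reads are open to the mapping-quality filter, whose part was not tested.

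Olfactory receptor genes carried less signal per CG than the genome at large in both maps, and the gap was wider for 5hmCGs. Reads per CG over the Olfr spans were 0.608 ± 0.00127 (SD, n = 2) at 500 ng. With 50 ng they were 0.432 ± 0.0145 (n = 2) and with 5 ng 0.289 ± 0.0130 (n = 2), against 0.752 ± 0.134 (n = 3) in uTOP-seq. Divided by the mean over all autosomal CGs of the same library, a quantity called relative coverage from here on, the 500 ng libraries gave 0.389 ± 0.00583, the 50 ng libraries 0.395 ± 0.00122 and the 5 ng libraries 0.396 ± 0.0105. In uTOP-seq the relative coverage was 0.652 ± 0.00140. The libraries held between 14884939 and 32502791 reads for hmTOP-seq and between 20120568 and 28412885 for uTOP-seq. At least 1 read fell on 18.5% and 19.4% of the Olfr CGs in the 500 ng libraries, on 2.46% and 2.50% at 5 ng and on 27.0% to 31.9% in uTOP-seq.

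At 500 ng, genes of low CG density carried little signal, so the receptors were set against other genes as poor in CGs. The median Olfr gene held 4.07 CGs per kb and the median of the other protein-coding genes was 12.5. CG-poor genes were the 4997 other autosomal protein-coding genes between 2.56 and 8.98 CGs per kb, the 5th and 95th percentile of the Olfr genes. Their relative coverage was 0.537 ± 0.00559 at 500 ng and 0.779 ± 0.00526 in uTOP-seq. The ratio of Olfr to CG-poor genes in the same library was 0.723 and 0.727 for the 500 ng libraries, 0.701 and 0.690 for those of 50 ng, 0.663 and 0.685 for those of 5 ng, and 0.842, 0.831 and 0.838 in uTOP-seq. The receptors were thus below these genes in all 6 hmTOP-seq libraries, with a mean log2 ratio of -0.52 (two-sided exact sign-flip permutation test, p = 0.03125, the smallest that 6 libraries can give). In uTOP-seq the mean log2 ratio was -0.26 (exact, p = 0.25, the smallest that 3 libraries can give). Between the assays the log2 ratio differed by 0.26 (exact permutation test of 6 against 3 libraries, p = 0.0119, the smallest it can give).

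Much of this deficit moved with CG density within the CG-poor set, whose median of 6.56 CGs per kb lies above that of the Olfr genes. With CG-poor genes weighted to the Olfr density, the ratio rose to 0.912 ± 0.00451 for 500 ng, to 0.874 ± 0.00900 for 50 ng, to 0.868 ± 0.0489 for 5 ng, and to 0.989 ± 0.00883 in uTOP-seq. A further set held all other protein-coding genes at or below the Olfr median density, with no lower limit, so it reaches below the CG-poor range. These genes are poorer in CGs than the receptors by construction. Against them the direction reversed to 1.77 ± 0.0235 at 500 ng and 1.22 ± 0.0158 in uTOP-seq. Against the 1437 CG-poor genes of similar length the ratio was 0.837 ± 0.00947 at 500 ng and 1.05 ± 0.00670 in uTOP-seq, above 1. Both the size of the deficit and its direction therefore depended on the comparison set, in hmTOP-seq as in uTOP-seq.

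**Figure D1:**
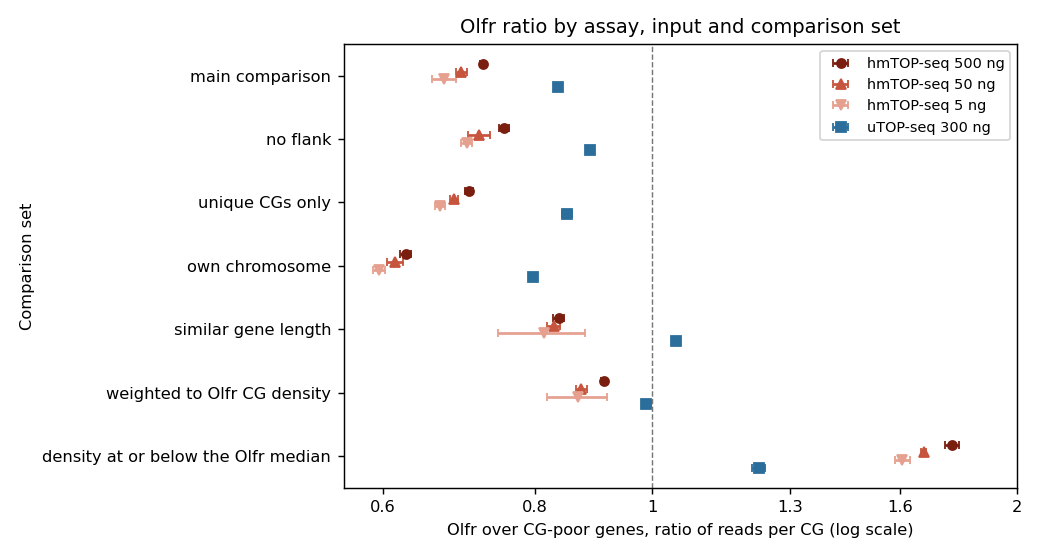
Ratio of reads per CG in Olfr genes to CG-poor genes (log axis) for 7 comparison sets, as the mean over libraries with SD bars (2 libraries for each hmTOP-seq input, 3 for uTOP-seq). The main comparison sits between 0.674 and 0.837, and weighting to the Olfr CG density moves it to between 0.868 and 0.989. The ratio to all other genes at or below the Olfr median density, with no lower limit, lies above 1 in both assays.

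Within intervals of CG density the order of the receptors and the other genes was mixed at 500 ng. Between 2.56 and 3 CGs per kb there were 0.222 reads per CG in 118 Olfr genes together and 0.226 in 67 other genes. Between 4 and 5 there were 0.379 in 266 Olfr genes and 0.391 in 729 other genes, and between 5 and 6 there were 0.559 in 142 and 0.530 in 793. The receptors were lower between 3 and 4, at 0.286 against 0.335, and between 6 and 8.98, at 0.753 against 0.973, a ratio of 0.774. Against CG-poor genes of similar length the receptors were lower in the poorest interval, with a ratio of 0.888, above these genes in the next 3, with 1.08, 1.51 and 1.26, and lower in the richest, with 0.673. In uTOP-seq the receptors rose little with density, from 0.718 in the poorest interval to 0.744 reads per CG in the richest, where the other genes were at 0.983. The ratios to genes of similar length there were 0.980, 1.199, 1.72, 1.29 and 0.806 from the poorest interval to the richest. These interval values were not tested.

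**Figure D2:**
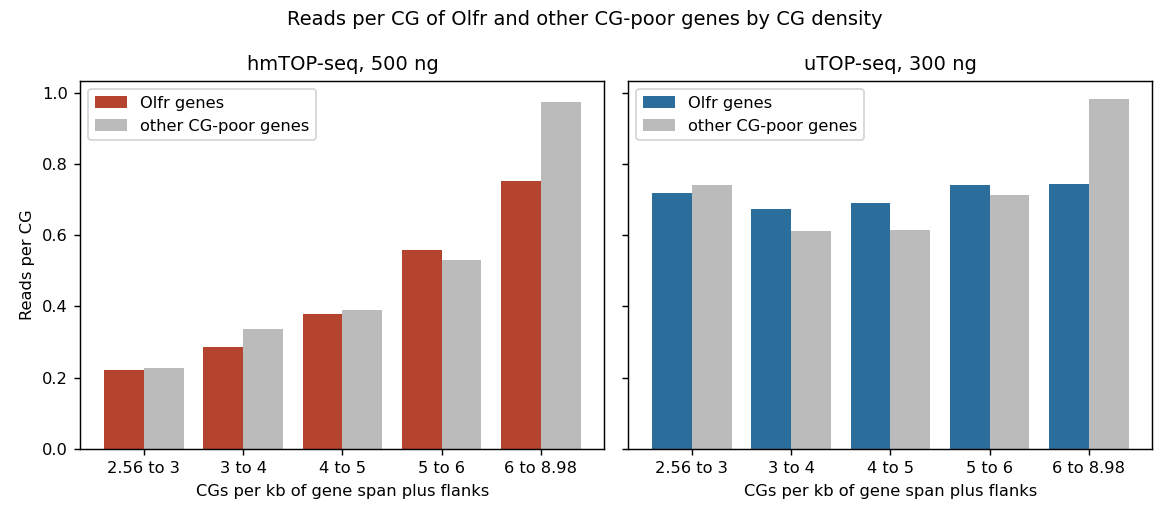
Reads per CG, not scaled for depth, over all Olfr genes and over all other CG-poor genes in 5 intervals of CG density (CGs per kb of the gene span plus flanks), at 500 ng on the left (mean of 2 libraries) and in uTOP-seq on the right (mean of 3). At 500 ng both sets climb with density, from 0.222 and 0.226 to 0.753 and 0.973, while in uTOP-seq the Olfr bars stay between 0.672 and 0.744.

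The clusters differed far more among themselves than the 500 ng libraries did. Over the 34 clusters of 5 or more genes, the relative coverage at 500 ng ran from 0.0987 to 1.27 with a median of 0.328, and 32 lay below the autosomal mean. In uTOP-seq it ran from 0.238 to 1.24 with a median of 0.627. The 18 clusters of 20 or more genes all lay below 1 in both assays, from 0.0987 to 0.677 at 500 ng and from 0.238 to 0.897 in uTOP-seq. The same gene cluster differed between the 2 libraries of an input by at most 1.38-fold for 500 ng, 1.59-fold for 50 ng and 4.15-fold for 5 ng. With 2 libraries against 2, no permutation test of clusters can give a p under 0.33, so the cluster values are a description.

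The lowest cluster was that of 25 genes from Olfr172 to Olfr209 at chr16:58759544-59363993. It had 0.155 and 0.153 reads per CG at 500 ng and 0.125 and 0.147 at 50 ng, against 0.710, 0.565 and 0.465 in uTOP-seq. The highest was a small cluster of 6 genes, Olfr70 to Olfr155, at chr4:43694784-43857595, with 2.07 and 1.91 reads per CG at 500 ng and 1.65, 1.28 and 1.12 in uTOP-seq. Next to it came the 9 genes from Olfr288 to Olfr279 at chr15:98186013-98502637, with 1.97 and 1.96 at 500 ng and 1.39, 1.12 and 1.002 in uTOP-seq. In that cluster 24.7% of the CGs lay within 2 kb of another protein-coding gene, against 3.10% in the chromosome 4 cluster and none in the chromosome 16 cluster. The chromosome 4 cluster held 11.54 CGs per kb and the chromosome 15 cluster 11.93, against 4.47 in the chromosome 16 cluster. The poorer cluster from Olfr1356 to Olfr57 on chromosome 10, with 3.352 CGs per kb, was higher than the chromosome 16 cluster at 500 ng. The part of CG density in these cluster values was not tested.

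Among the large arrays, the 227 genes from Olfr987 to Olfr1274-ps at chr2:85330779-90403897 form the most populous cluster. Their relative coverage was 0.198 ± 0.0107 for 500 ng, 0.222 ± 0.0106 for 50 ng and 0.257 ± 0.00175 for 5 ng, against 0.519 ± 0.0119 in uTOP-seq. Class I receptors, the group related to fish receptors, lie on chromosome 7 around the beta-globin genes. The cluster of 95 genes that contains the beta-globin genes, Olfr543 to Olfr649 at chr7:102476579-104195985, was at 0.328 ± 0.00495 at 500 ng and 0.619 ± 0.00747 in uTOP-seq, and its neighbour of 34 genes, Olfr651 to Olfr692, was at 0.256 ± 0.00754 and 0.673 ± 0.00244. The cluster of 95 genes on chromosome 9, Olfr160 to Olfr986, was at 0.386 at 500 ng and 0.625 in uTOP-seq, and the 60 genes from Olfr9 to Olfr827 on chromosome 10 were at 0.192 and 0.612. The 2 neighbouring arrays of chromosome 19 stood apart, with 0.523 for the 22 genes from Olfr1417 to Olfr1441 and 0.191 for the 44 genes from Olfr1442 to Olfr1505 at 500 ng.

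In 29 of the 34 clusters both 500 ng libraries lay below all 3 uTOP-seq libraries in relative coverage, and in the other 5 both lay above. Over single genes, the former held for 846 of the 1128 Olfr genes (75%), against 67.7% of the CG-poor genes and a background of 56.2% of all protein-coding genes. The latter held for 75 Olfr genes (6.65%), against 8.95% of the CG-poor genes and a background of 28% of all genes. When all 6 hmTOP-seq libraries had to lie below uTOP-seq, the share was closer to the background, at 552 Olfr genes (48.9%), against 46.7% of the CG-poor genes and a background of 42.4%. All 6 lay above in 18 Olfr genes (1.596%), against 3.42% and a background of 15.8%. The 5 clusters with higher relative coverage at 500 ng than in uTOP-seq were the highest 2, the 5 genes from Olfr211 to Olfr215 on chromosome 6, the 21 genes from Olfr30 to Olfr311 on chromosome 11 and the 7 genes from Olfr1513 to Olfr1507 on chromosome 14. The chromosome 14 cluster had 0.987 and 1.02 reads per CG at 500 ng and 0.416, 0.364 and 0.289 in uTOP-seq. All of chromosome 14 was low in uTOP-seq, at 0.631 against 0.797 at 500 ng, and the part of this in the cluster's values was not tested. The largest cluster of that chromosome, 27 genes from Olfr722 to Olfr749, was low in both assays, at 0.169 and 0.238.

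**Figure D3:**
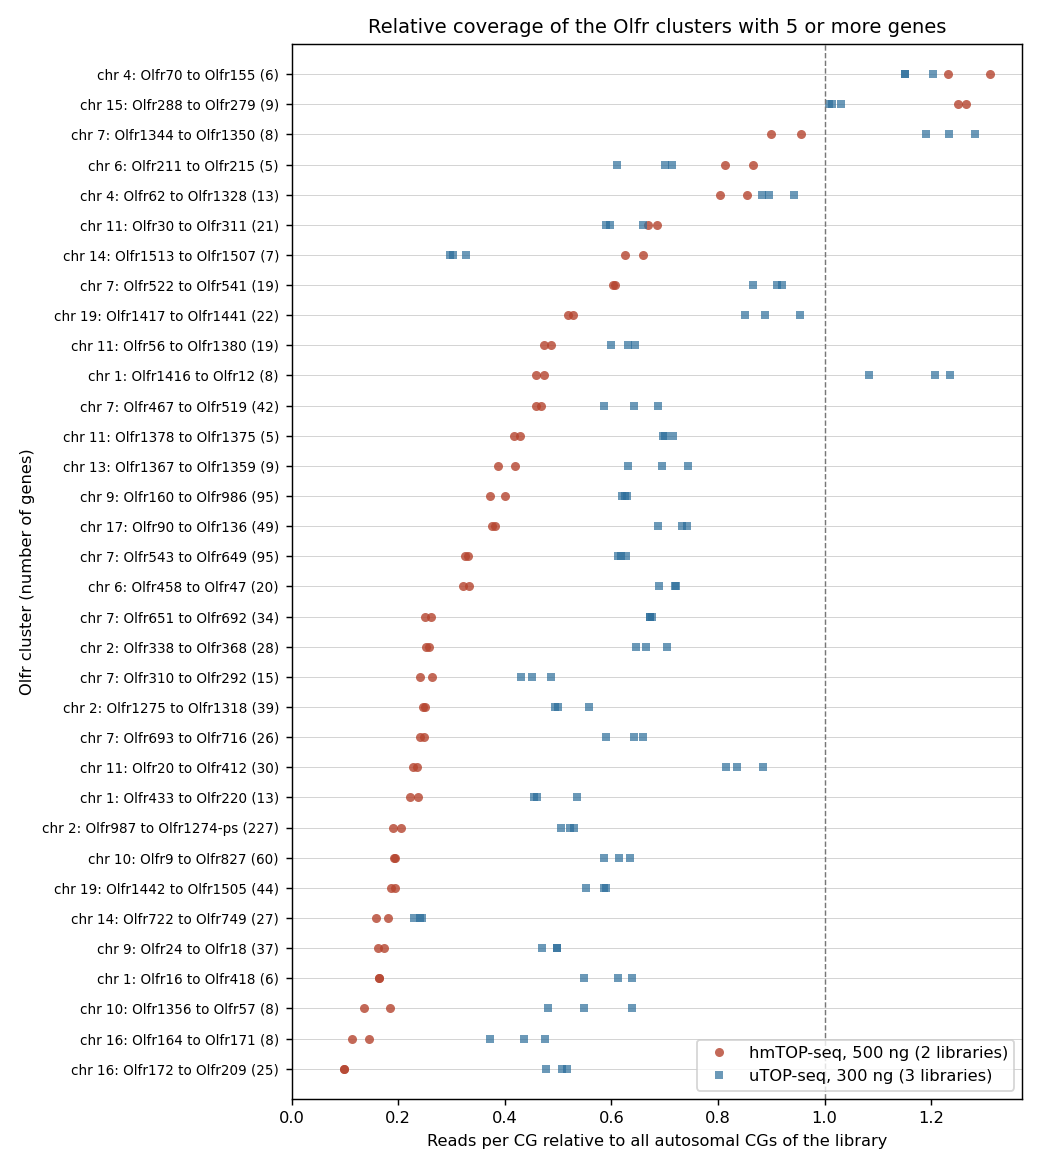
Relative coverage (reads per CG divided by the mean over all autosomal CGs of the library) of the 34 Olfr clusters with 5 or more genes, each point 1 library, sorted by the 500 ng mean and labelled with chromosome, first and last gene and number of genes. Most red points (500 ng) lie left of the blue ones (uTOP-seq), from 0.0987 in the lowest cluster to 1.27 in the highest.

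Taken as sets, genes of other families inside and beside the clusters carried more signal than the receptors and were richer in CGs. The 593 other protein-coding genes within 200 kb of a cluster had a relative coverage of 1.24 ± 0.000334 at 500 ng and 1.34 ± 0.00649 in uTOP-seq. Their median was 11.35 CGs per kb, against 4.07 for the Olfr genes, and the part of CG density was not tested. The order did not hold at every cluster. Beside Olfr1370 to Olfr1368 on chromosome 13, the neighbours were at 0.488 and the receptors at 0.544 at 500 ng. The 82 that lie inside a cluster, such as the beta-globin genes, had 0.893 ± 0.000113 and 1.12 ± 0.0109, at a median of 7.63 CGs per kb. Among the other chemoreceptors, the 208 Vmn1r genes were at 0.259 ± 0.00325 at 500 ng and 0.536 ± 0.00885 in uTOP-seq, and the 121 Vmn2r genes were at 0.195 ± 0.00599 and 0.360 ± 0.00832, both below the Olfr genes by more than the spread between libraries. The 35 Tas2r taste receptor genes were at 0.194 ± 0.0116 and 0.631 ± 0.111. The 15 Taar genes, trace amine receptors that are also used in the nose, were higher in CGs, with 7.29 per kb, and stood at 0.766 ± 0.0127 and 0.760 ± 0.0765.

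Single receptor genes spanned from no read to several times the genome mean. The median Olfr gene had 0.265 reads per CG at 500 ng, with a 5th and 95th percentile of 0.0455 and 1.46, and 49 genes (4.34%) exceeded the autosomal mean, against 9.53% of the CG-poor genes and 10.2% of those of similar length. In uTOP-seq the median was 0.695, with percentiles of 0.250 and 1.22. Across the Olfr genes, the reads per CG of replicates 1 and 2 correlated with a Pearson r of 0.942 for 500 ng, 0.791 for 50 ng, 0.339 for 5 ng and 0.698 in uTOP-seq, and the 500 ng and uTOP-seq means with 0.495. Genes are not independent replicates, since neighbours share CGs, CG density and library depth.

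The 10 highest genes at 500 ng were all richer in CGs than the family median of 4.07 CGs per kb. Among the 1064 genes with at least 20 CGs, Olfr222 (chr11:59570255-59576235, 10.8 CGs per kb) came first with 586 and 605 reads over 108 CGs at 500 ng. The 50 ng libraries held 406 and 389 reads of it, the 5 ng libraries 368 and 323, and uTOP-seq 274, 267 and 223. Olfr503 on chromosome 7 followed with 205 and 224 reads over 41 CGs at 500 ng and 58, 49 and 43 in uTOP-seq. Olfr279 on chromosome 15 had 968 and 947 reads over 217 CGs and 436, 369 and 314 in uTOP-seq. The 10 highest genes were chosen for their 500 ng values, so their excess over uTOP-seq is a description.

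The other 7 of the highest 10 were Olfr1344, Olfr478, Olfr1358, Olfr543, Olfr718-ps1, Olfr1342 and Olfr539. In Olfr1344 96.7% of the CGs lie within 2 kb of another gene. Olfr718-ps1 lies alone on chromosome 5 and had 830 and 826 reads over 229 CGs at 500 ng and 372, 363 and 351 in uTOP-seq. Olfr543, at the edge of the class I cluster on chromosome 7, had 312 and 312 reads over 86 CGs at 500 ng and 156, 109 and 97 in uTOP-seq.

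At the other end, 15 of the 1128 Olfr genes had no read in either 500 ng library, against 361 of the 4997 CG-poor genes. Having no read was thus not particular to the receptors. Of the 15 Olfr genes, 10 had no read in any hmTOP-seq library. A count of 0 allows up to 3 reads. Of these 15 genes 13 had uTOP-seq reads, up to 31, 15 and 15 over the 39 CGs of Olfr1002 on chromosome 2. Olfr1295 had 23, 20 and 14 and Olfr835 had 21, 17 and 15 uTOP-seq reads. Olfr803 had 27, 16 and 5, and Olfr680-ps1 had 11, 10 and 17. Olfr1082, Olfr1168 and Olfr834 had 12 uTOP-seq reads each over the 3 libraries. Olfr1506 and Olfr247 had no read in any library, and 0% of their CGs have 40 flanking bases on both sides that occur once in the genome, against 78.5% over all Olfr CGs. In the 15 genes together this share was 55.9%.

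With the CGs of all Olfr genes pooled, the signal within the genes was highest in coding sequence. The 9330 CGs of Olfr coding sequence had a relative coverage of 0.629 ± 0.00531 at 500 ng, against 0.370 ± 0.00893 in untranslated exons, 0.290 ± 0.0100 in introns, 0.338 ± 0.00595 in the 2 kb upstream and 0.392 ± 0.00402 in the 2 kb downstream. In uTOP-seq the elements lay closer together, at 0.760 ± 0.0249 in coding sequence, 0.662 ± 0.0181 in untranslated exons and 0.618 ± 0.00712 in introns. With 50 ng coding sequence was at 0.610 ± 0.0174 and introns at 0.306 ± 0.00647, and with 5 ng at 0.557 ± 0.0878 and 0.332 ± 0.0286. In this pooling the order of coding sequence above introns held in every library. Genes rich in coding CGs weigh more in it, and the elements were not compared with each gene weighted equally. Over the coding CGs other than the DRY site, in genes that have it, reads per CG at 500 ng were 1.13 pooled. With each gene weighted equally they were 0.541.

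The CGs around the start codon of the 1089 genes with 1 coding exon were pooled as well. Their relative coverage at 500 ng rose from 0.324 ± 0.0190 in the 250 bp before the start codon to 0.687 ± 0.00349 between 500 and 750 bp after it. It fell to 0.164 ± 0.00492 between 1000 and 1250 bp, past the end of the median coding sequence of 939 bp. CG density rose over the same stretch, from 3.93 to 10.8 CGs per kb between 250 and 500 bp, and was 3.77 between 1000 and 1250 bp. In uTOP-seq the values in the same places were 0.615 before the start codon, 0.752 between 500 and 750 bp and 0.522 between 1000 and 1250 bp.

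**Figure D4:**
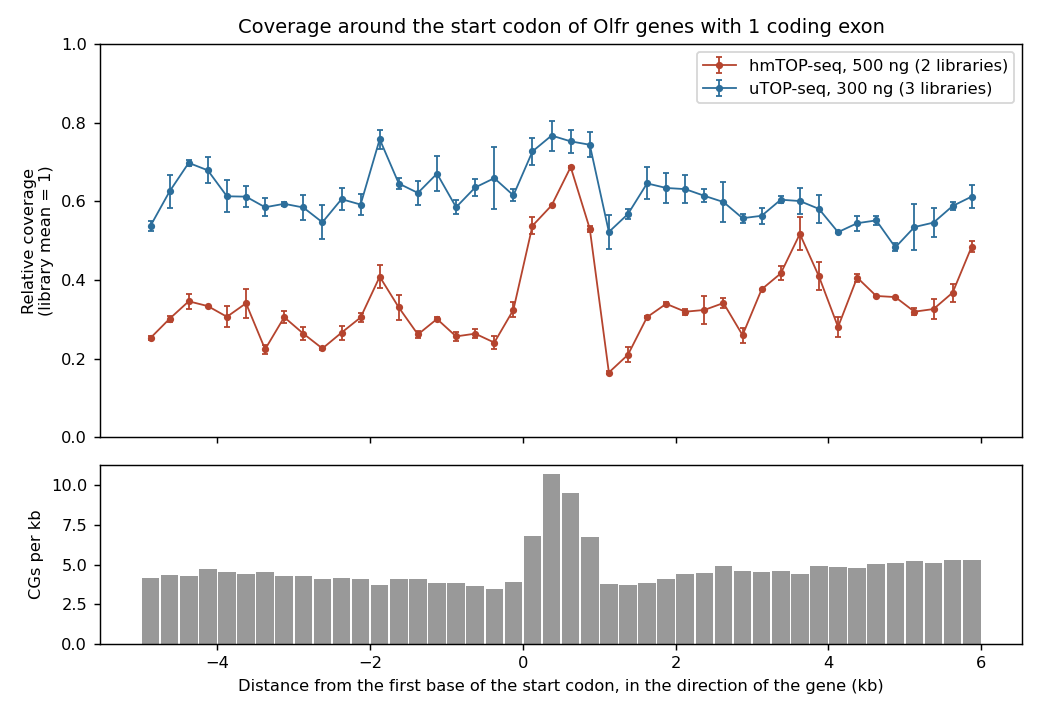
Upper panel, relative coverage in bins of 250 bp around the start codon of 1089 Olfr genes, in the direction of the gene, as the mean with SD bars (2 libraries at 500 ng, 3 in uTOP-seq); lower panel, CGs per kb in the same bins. With CGs pooled over genes, both assays and the CG density peak over the coding sequence, and the 500 ng line drops from 0.687 to 0.164 past its end.

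Strong single sites were rare and lay mostly in coding sequence. At least 20 reads in both 500 ng libraries were found at 58 Olfr CGs (0.105%), against 0.532% of all autosomal CGs, and 36 of the 58 were coding. They lay nearest to 27 genes, with 10 at Olfr279, 7 at Olfr222 and 7 at Olfr718-ps1. The strongest, a coding CG of Olfr279 at position 98497983 of chromosome 15, had 68 and 69 reads with 500 ng, 58 and 42 with 50 ng, 41 and 89 with 5 ng and 11, 6 and 9 in uTOP-seq. These sites were chosen after their values were seen.

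The arginine CG of the DRY motif had fewer reads than the rest of the coding sequence when all sites were pooled. Over 742 such CGs there were 0.449 and 0.491 reads per CG at 500 ng, and over the 5547 other coding CGs of the same genes 1.12 and 1.13. Their quotient was 0.417 ± 0.0225 for 500 ng, 0.424 ± 0.0732 for 50 ng and 0.468 ± 0.240 for 5 ng, and 0.760 ± 0.0588 in uTOP-seq. The mean log2 ratio over the 6 hmTOP-seq libraries was -1.24 (two-sided exact sign-flip permutation test, p = 0.03125). In this pooling a gene weighs once among the DRY sites but by its number of coding CGs among the other sites. With each gene weighted equally, the mean log2 ratio was -0.24 and the call was lost (exact, p = 0.1562), with ratios of 0.839 and 0.909 for 500 ng, 0.977 and 0.736 for 50 ng, 0.576 and 1.17 for 5 ng, and 0.908, 0.853 and 0.848 in uTOP-seq. A read was found at 223 of these sites in at least 1 of the 500 ng libraries and at 430 in uTOP-seq, and 277 had reads in uTOP-seq but none at 500 ng.

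Gene by gene, the 500 ng libraries were compared with uTOP-seq across all autosomal protein-coding genes (edgeR's quasi-likelihood test with Benjamini-Hochberg adjustment over 19830 genes with a mean of 10 reads). Of the 976 Olfr genes that passed this minimum, 637 (65.3%) were lower at 500 ng, against a background of 41.7% of all genes and against 57.9% of the CG-poor genes. Higher were 83 Olfr genes (8.504%), against a background of 40.4% and 16.3% of the CG-poor genes. The median log2 fold change was -1.28 over the Olfr genes, -0.42 over the CG-poor genes and -0.02 over all genes. A further 152 Olfr genes were below the minimum, which keeps genes that are high in either assay. With every gene of at least 1 read, 717 of 1126 Olfr genes were lower, against a background of 41% of all genes, and 85 higher, against 39.6%. With library totals in place of TMM factors the median of all genes moved to -0.32 and that of the Olfr genes to -1.57. The Olfr median relative to that of all genes was thus -1.25 in both scalings. The calls were then 717 lower (73.5%) and 50 higher (5.12%), against a background of 55.4% and 26.9%. Of the CG-poor genes, 72.5% were lower in this scaling, close to the Olfr share, and 7.62% were higher. The split over all genes went from 8279 lower and 8013 higher to 10984 and 5342.

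The 3 called genes with the most negative fold change were Olfr1002, Olfr1295 and Olfr835, whose reads are given above. Both 500 ng libraries were at 0 in all 3, and they reached the minimum of reads through uTOP-seq alone, so that a difference was fixed by the filter and only bounds are given, with no test. Against 3 reads over both 500 ng libraries, uTOP-seq reads scaled by library total were at least 18.4-fold higher in Olfr1002, at least 17.2-fold in Olfr1295 and at least 16.0-fold in Olfr835. The median fold change of the Olfr genes stayed at -1.28 with these genes at their bound.

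The 3 called genes with the largest increase at 500 ng were Olfr1512, Olfr503 and Olfr1513. Olfr1512 had 193 and 183 reads at 500 ng and 50, 32 and 45 in uTOP-seq, with a log2 fold change of 1.997 ± 0.202 (SE, edgeR adjusted p = 1.595e-13). Olfr503 had a log2 fold change of 1.95 ± 0.18 (edgeR adjusted p = 1.129e-14). Olfr1513 had 169 and 156 reads at 500 ng and 43, 51 and 22 in uTOP-seq, with 1.92 ± 0.22 (edgeR adjusted p = 1.086e-11). Olfr1512 and Olfr1513 are neighbours in the chromosome 14 cluster described above.

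**Figure D5:**
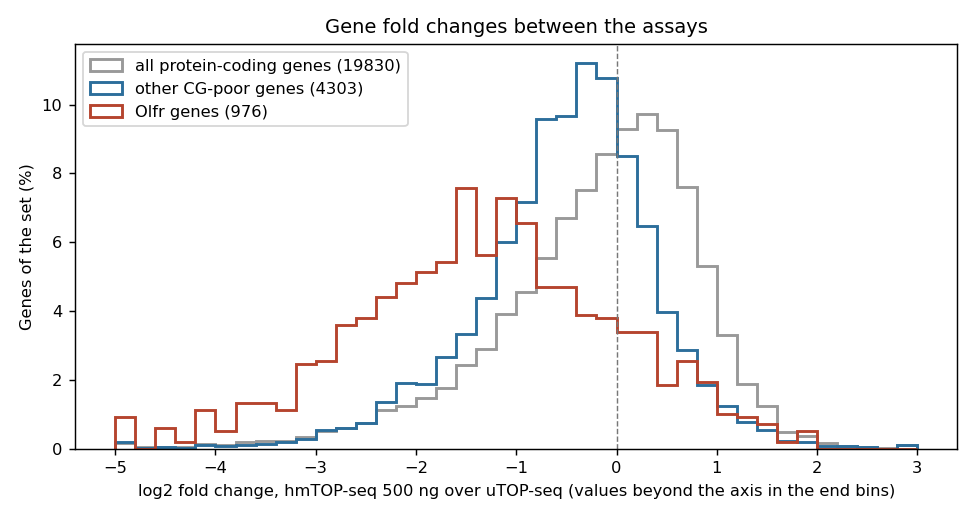
Distribution of the log2 fold change of hmTOP-seq at 500 ng over uTOP-seq, as the percentage of genes in bins of 0.2, for all 19830 genes tested, 4303 CG-poor genes and 976 Olfr genes. The Olfr curve is shifted to the left, with a median of -1.28 against -0.42 for the CG-poor genes.

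The relative coverage of the family as a whole was close at all inputs, at 0.389 for 500 ng, 0.395 for 50 ng and 0.396 for 5 ng. Single genes were poorly resolved at the lower inputs. On simulated counts the 5 ng fit recovered 40 of 100 genes changed by a log2 fold of 1 and 3 of 100 changed by 0.5. A lack of calls therefore does not show that genes were equal between inputs. Between 50 and 500 ng, 0 of 567 Olfr genes were called by edgeR, against a background of 0% higher and 0.00522% lower of 19142 genes, and 26 had an unadjusted p under 0.05, as did 2233 of all genes (11.7%). DESeq2 called 0 Olfr genes too, against a background of 0.475%. Between 5 and 500 ng, 0 of 501 Olfr genes were called by edgeR, against a background of 0% in both directions over 18949 genes, with 58 at an unadjusted p under 0.05, as had 2139 of all genes (11.3%). DESeq2 called 11 Olfr genes higher and 10 lower, against a background of 3.07% and 2.26%. Leaving out 5 ng replicate 1 or 2 raised the Olfr calls to 345 of 538 or 347 of 539, against a background of 57.3% or 56.6% of all genes. Leaving out 50 ng replicate 1 or 2 raised those between 50 and 500 ng to 31 of 580 or 64 of 598, against a background of 12.6% in both cases, since the spread between the 2 libraries of the lower input then no longer enters the test. The number of Olfr genes with no read in either library of an input rose from 15 for 500 ng to 85 for 50 ng and 408 for 5 ng. Many reads sat on few sites at 5 ng, where a covered Olfr CG held 11.4 and 11.9 reads on average, against 3.29 and 3.14 at 500 ng.

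Control libraries without the glucosyltransferase held between 3409 and 10072 reads. At 500 ng, 16 and 15 of these were on Olfr CGs, which is 0.161% (95% exact Clopper-Pearson interval 0.0920% to 0.261%) and 0.163% (0.0910% to 0.268%) of the autosomal reads, against 0.105% and 0.107% in the labelled libraries. At 50 ng there were 8 and 0 reads, the latter allowing up to 3, and at 5 ng 34 and 8. The 34 reads lay on 3 CGs. These intervals cover counting error only. Per CG, the controls at 500 ng held 0.000289 and 0.000271 reads against 0.608 and 0.609 in the labelled libraries.

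The genes that serve the receptors in sensory neurons were richer in CGs and, as lists, had a relative coverage above 1. The 12 genes of olfactory signal transduction, with a median of 11.0 CGs per kb, were at 1.04 ± 0.00724 at 500 ng and 1.02 ± 0.0143 in uTOP-seq. In the comparison of both, 8 were higher at 500 ng, 3 were lower and 1 did not pass the test, against a background of 40.4% higher and 41.7% lower of all genes. The calls of these lists rest on TMM factors, and calls with library totals were not made for them. Of the 8, Ric8b, Ano2 and Stoml3 had a lower relative coverage at 500 ng than in uTOP-seq. It was 1.26 against 1.34 for Ric8b, 0.662 against 0.758 for Ano2 and 1.095 against 1.143 for Stoml3. The median log2 fold change of the list was 0.21, and that of all genes -0.02. Omp, the marker protein of mature olfactory sensory neurons, had 6.48 and 6.57 reads per CG at 500 ng and 1.96, 1.90 and 1.57 in uTOP-seq, with a log2 fold change of 1.70 ± 0.10 (edgeR adjusted p = 9.581e-24). Cngb1, a subunit of the olfactory cyclic nucleotide-gated channel, rose by 1.19 ± 0.05 (edgeR adjusted p = 2.96e-31) and Adcy3, the adenylyl cyclase of the cilia, by 0.95 ± 0.04 (edgeR adjusted p = 3.509e-30). Pde1c, a phosphodiesterase gene of 6.12 CGs per kb, was lower, at -0.47 ± 0.05 (edgeR adjusted p = 1.953e-12). Its relative coverage, 0.310 ± 0.00834 at 500 ng and 0.526 ± 0.0241 in uTOP-seq, lay below that of the Olfr genes, and that of Ano2, a chloride channel gene, was 0.662 ± 0.0127 at 500 ng.

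All 3 genes of receptor transport to the cell surface were higher at 500 ng, with a median log2 fold change of 0.88, and Rtp1, a chaperone of receptor trafficking, was at 0.89 ± 0.15 (edgeR adjusted p = 2.182e-07). Of the 10 genes for receptor choice and sensory neuron regulation, 6 were higher, 1 was lower and 3 did not pass the test, against the same background of 40.4% and 41.7%, with a median of 0.21. Of the 6, Kdm1a and Ebf4 had a lower relative coverage at 500 ng than in uTOP-seq, at 1.436 against 1.589 and 1.32 against 1.335. Ebf2, a transcription factor gene, was highest at 1.52 ± 0.04 (edgeR adjusted p = 1.196e-39) and lies on chromosome 14, which was low in uTOP-seq as a whole. Lhx2 and Ldb1, the transcription factor and cofactor that bring receptor enhancers together, were at -0.09 ± 0.05 and -0.07 ± 0.06 and did not pass the test. The lists had medians of 11.8 CGs per kb for transport and 17.6 for the regulators, against 4.07 for the Olfr genes. The relative coverage of the transport list was 1.44 ± 0.0209 at 500 ng and 1.29 ± 0.103 in uTOP-seq, and that of the regulators 1.35 ± 0.00883 and 1.20 ± 0.0248.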

How the data were processed

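The deposited tables hold the authors' read counts per CG on mm10, from Ion Proton reads of at least 80 nt with a mapping quality of at least 30 and with duplicates of the same start and length removed, and the counts are not normalized. The aligner is not given in the sources used here. CG positions in the tables count from 0 and were moved by 1, after which all 20383623 autosomal positions lay on a CG of GRCm38.p6. Counts of both strands were summed. Depth per library is given in the text, and reads carry no molecular identifiers, so counts are not independent molecules.

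Reads were summed over gene spans plus 2 kb (GENCODE M21). Gene fits used edgeR 4.0.16 in R 4.3.3 with TMM factors and a threshold of 0.05 on the adjusted p, and DESeq2 1.42.0 as an alternative. Overlapping spans share reads. On simulated counts with 100 genes changed by a log2 fold of 1, the 500 ng against uTOP-seq fit recovered 87, the 50 ng fit 85 and the 5 ng fit 40. Of 100 genes changed by 0.5 they recovered 78, 60 and 3. The changed genes were drawn from all genes tested, not from Olfr genes alone. Far fewer genes were changed than were called between 500 ng and uTOP-seq. Members, gene lists and tests were chosen with earlier results of these data known. Named were clusters of 20 or more genes, the highest and lowest cluster of 5 or more, the 10 highest and lowest genes with at least 20 CGs, and in each fit the 3 largest changes each way among called genes. Protein sequences were not used here, and 2 of the stretches that the rule for sequences names are not reported here.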

Additional observations from a re-analysis of the deposited data

Results flagged for a closer look

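The ratio of Olfr to CG-poor genes differed between the assays: the mean log2 ratio was 0.262 higher in uTOP-seq than in hmTOP-seq (exact permutation test of 6 against 3 libraries, p = 0.0119, the smallest it can give), and every hmTOP-seq library, from 0.663 to 0.727, lay below every uTOP-seq library, from 0.831 to 0.842. Weighted to the Olfr CG density the difference was 0.16 with the same p. Against all other protein-coding genes at or below the Olfr median density it was -0.46, in the other direction. The assays also differ in chemistry and input, and the part of these in the difference was not tested.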

How the results depend on the processing

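The mean log2 ratio of Olfr to CG-poor genes in hmTOP-seq, -0.52, kept its direction in 15 of 16 alternative sets. It ran there from -0.76 with equal weight per gene to -0.18 with weighting to the Olfr CG density. It turned to 0.75 against all other protein-coding genes at or below the Olfr median density. The p of the exact sign-flip test was 0.03125 in every set, also where the direction turned. This p is reached whenever all 6 libraries share a sign, so it does not measure dependence on the set. The assay difference of 0.26 kept its direction in 24 of 25 alternatives. It turned to -0.46 in the set at or below the Olfr median density, where the exact permutation test gave p = 0.0119 as well. Leaving out 1 library gave -0.53 to -0.50 for the ratio, where 5 libraries cannot give a p under 0.0625, and 0.25 to 0.27 for the assay difference. The settings chosen after seeing the data were the sets far from other genes, without the 2 longest models, without chromosome 14, weighted to CG density and equal weight per gene, and equal weight for the DRY sites. The DRY ratio of -1.24 was -1.08 at unique sites, -0.24 (exact permutation test, p = 0.1562) with equal weight per gene, and -1.35 to -1.13 with 1 library left out (exact, p = 0.0625 each).

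Between 500 ng and uTOP-seq, 8.504% of the 976 Olfr genes were called higher and 65.3% lower, against a background of 40.4% and 41.7%. These 720 Olfr calls stayed between 619 and 802 in all alternatives. The 3 named genes that were higher at 500 ng kept direction and call in all 27. Of the 3 named for the most negative fold, Olfr1002 fell below the minimum of reads without uTOP-seq replicate 1, Olfr1295 without replicate 1 or 2 and Olfr835 without any 1 of the 3, so that their calls drop out there. Between 50 and 500 ng, 0 Olfr calls became 1 with the replicate block and 0 to 64 with 1 library left out. Between 5 and 500 ng, 0 became 21 with DESeq2 and 0 to 347 with 1 library left out, and stayed 0 with the replicate block. The block gave 678 Olfr calls between 500 ng and uTOP-seq, 75 higher and 603 lower, against 7917 and 8115 of all 19830 genes. Libraries of the same number did not deviate together (correlations of -0.005 to 0.035), so the numbers do not pair them. The median log2 fold change of the Olfr genes between 5 and 500 ng, 0.20, turned to -0.89 without the minimum of reads, to -0.32 with the replicate block and to -0.15 or -0.20 without a 5 ng library (range over libraries left out -0.20 to 0.39), and the cause was not tested. The control share of 0.162% at 500 ng was 0.163% or 0.161% with 1 library left out. The median cluster value of 0.3277 was 0.3269 or 0.3285. With only 2 libraries, a shift below their spread was close to fixed in advance, so these values are a description. At 5 ng, 408 Olfr genes had no read in either library, and a count of 0 allows up to 3.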

Other observations

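Receptor genes that lie alone or in groups of fewer than 5 spread more widely than the large arrays. Of these small clusters 21 were below and 5 above the autosomal mean at 500 ng, in a range of relative coverage from 0.0386 to 2.31 with a median of 0.431. The 5 above were Olfr718-ps1 on chromosome 5 at 2.31, the pair Olfr222 and Olfr223 on chromosome 11 at 2.197, the pair Olfr1358 and Olfr1357 on chromosome 10 at 1.71, Olfr750 on chromosome 14 at 1.22 and Olfr15 on chromosome 16 at 1.09. In uTOP-seq they were at 1.39, 1.61, 1.23, 0.786 and 1.69, so that Olfr15 alone among them was higher in uTOP-seq. The lowest was Olfr266 on chromosome 3 with 33 CGs, at 0.0386 for 500 ng and 0.648 in uTOP-seq. These genes were picked after their values were seen.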
